A study of Mus musculus with 4 samples.

Results

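The let-7 guide strands were followed in small RNA libraries of the mouse main olfactory epithelium, a tissue of odour-sensing neurons, supporting cells and stem cells. They are the rows of the deposited table named mmu-let-7a-5p, mmu-let-7b-5p, mmu-let-7c-5p, mmu-let-7d-5p, mmu-let-7e-5p, mmu-let-7f-5p, mmu-let-7g-5p and mmu-let-7i-5p, together with mmu-miR-98-5p, and their names are given without the species prefix from here on, except where the sequences and the highest levels are listed. These are 9 of 1167 rows, all 9 were found, and none was lost to a filter. The samples came from male C57BL/6 mice 3 months of age, 2 of them wild type and 2 AC3-/-. AC3 is adenylyl cyclase 3, which olfactory neurons use to turn odour binding into cAMP. No treatment is named for either genotype, and the labels do not say whether the 2 samples of a genotype were separate animals, so a p-value measures only the spread between these samples, which may be technical. The loss of AC3 was not checked here, since small RNA does not report its mRNA. All 8 miRNAs fixed as marks of the sensory epithelium were listed, none of them at 0 in either genotype. In a bulk tissue sample, fewer cells of a type and less RNA per cell cannot be told apart.

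let-7 miRNAs are cut by Drosha and Dicer from hairpin precursors, and the strand from the 5′ side of the hairpin, the guide, is the one mostly loaded into Argonaute. The loaded guide pairs with target mRNAs through its seed, bases 2 to 8 counted from its 5′ end, and lowers their output. let-7 is known for rising as cells leave the progenitor state, in mutual opposition with the RNA-binding protein LIN28, and it is abundant in most adult tissues. miR-98 belongs to the family by its sequence although it carries another name.

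All 9 members matched a mature sequence in RefSeq (GRCm38.p6). They are shown because they share 1 seed, written in capitals, and differ from each other at few other bases.
mmu-let-7a-5p: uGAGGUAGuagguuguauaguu
mmu-let-7b-5p: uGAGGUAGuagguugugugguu
mmu-let-7c-5p: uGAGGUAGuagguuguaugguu
mmu-let-7d-5p: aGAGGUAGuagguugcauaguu
mmu-let-7e-5p: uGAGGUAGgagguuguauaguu
mmu-let-7f-5p: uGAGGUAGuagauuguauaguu
mmu-let-7g-5p: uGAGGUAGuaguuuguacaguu
mmu-let-7i-5p: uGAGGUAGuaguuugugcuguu
mmu-miR-98-5p: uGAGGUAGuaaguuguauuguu

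Each of the 9 is 22 bases long. Relative to let-7a-5p, with positions counted from 1 at the 5′ end, let-7f-5p differs by G12A, let-7c-5p by A19G and let-7e-5p by U9G. let-7b-5p differs by A17G and A19G, let-7d-5p by U1A and U16C, let-7g-5p by G12U and U18C, and miR-98-5p by G11A and A19U. let-7i-5p is the farthest from let-7a-5p, with G12U, A17G, U18C and A19U. Of the 36 pairs of members, 4 are 1 base apart and 10 are 2 bases apart. The pairs 1 base apart join let-7a-5p to let-7c-5p, let-7e-5p and let-7f-5p, and let-7b-5p to let-7c-5p, while let-7d-5p, let-7g-5p, let-7i-5p and miR-98-5p are at least 2 bases from every other member. How many mismatches the alignment allowed is not given in the sources used here, so some reads could have been counted under a neighbour. 2 further RefSeq mature sequences carry the same seed, let-7k and miR-1961. let-7k is listed at only 1.35 normalised reads in AC3-/- and 1.70 in wild type.

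The 9 guides come from 12 hairpins in GRCm38, so 3 of them cannot be assigned to a single gene. Mirlet7a-1 (chromosome 13, 48538179 to 48538272), Mirlet7f-1 (48537829 to 48537917) and Mirlet7d (48536012 to 48536114) lie together on the minus strand, in exons of the noncoding gene 6720427I07Rik. Mirlet7c-2 (chromosome 15, 85706603 to 85706697) and Mirlet7b (85707319 to 85707403) lie on the plus strand in exons of Lncppara. Mirlet7f-2 (chromosome X, 151912346 to 151912428) and Mir98 (151913214 to 151913321) both lie in introns of Huwe1, on its strand. Mirlet7a-2 (chromosome 9, 41536716 to 41536811) is in an intron of 3110039I08Rik, Mirlet7c-1 (chromosome 16, 77599657 to 77599750) in an intron of Mir99ahg and Mirlet7e (chromosome 17, 17830352 to 17830444) in an intron of Spaca6. Mirlet7g (chromosome 9, 106178840 to 106178927) is in an intron of Wdr82, and Mirlet7i (chromosome 10, 122985640 to 122985724) is in an exon of D630033A02Rik on the minus strand. let-7a-5p, let-7c-5p and let-7f-5p each have 2 hairpins, and the mature reads do not tell them apart.

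The table gives, for each genotype, the mean over its 2 libraries of read counts divided by a size factor, called the mean normalised read count here. The family summed to 1011740 normalised reads in wild type and 778029 in AC3-/-, which were 8.21% and 8.90% of the sum over all rows for the genotype. With the miR-200 family and the miR-183 cluster left out of the total, the shares were 14.8% and 11.3%, in the opposite order. mmu-let-7f-5p was the most abundant member, with a mean normalised read count of 466344 in wild type and 324103 in AC3-/-, and ranked 8 among all miRNAs in both genotypes. mmu-let-7g-5p followed in wild type with 192566, against 137808 in AC3-/-. mmu-let-7i-5p had 155400 in wild type and 153743 in AC3-/-. The order of let-7g-5p and let-7i-5p was therefore opposite in the 2 genotypes, with let-7g-5p at rank 14 and let-7i-5p at rank 16 in wild type and at ranks 16 and 14 in AC3-/-. These 3 members held 80.5% of the family in wild type and 79.1% in AC3-/-.

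let-7c-5p had a mean normalised read count of 82973 in wild type and 72130 in AC3-/-. let-7a-5p, to which the other sequences were compared above, had 61194 in wild type and 44150 in AC3-/-. let-7b-5p had 24321 and 22016, in that order. Lower still were let-7d-5p with 14682 and 11061 and let-7e-5p with 10763 and 9938. miR-98-5p was the scarcest, with 3496 and 3080. The distance between the most and the least abundant member was 133-fold in wild type and 105-fold in AC3-/-. Adaptor ligation and PCR favour some sequences, so these are levels of reads, and they rank molecules only loosely. No read depth per sample is given for the 5 most abundant members, whose single libraries could not be worked back from the means.

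**Figure D1:**
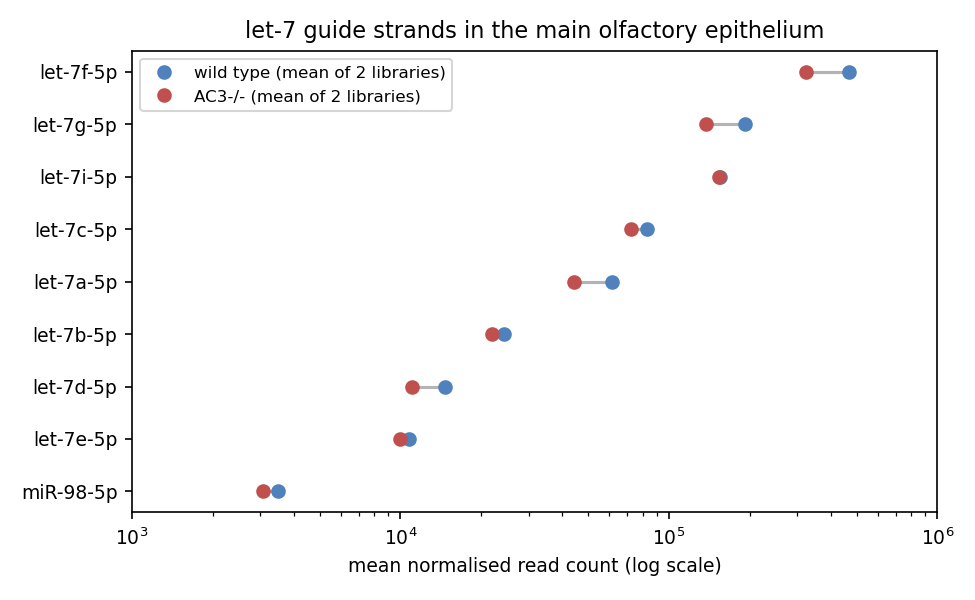
Mean normalised read count of the 9 let-7 guide strands on a log axis, wild type in blue and AC3-/- in red, each point the mean of 2 libraries with no error shown because the table gives none. let-7f-5p lies at the top, at 466344 and 324103, and miR-98-5p at the bottom, at 3496 and 3080; the 2 points of let-7i-5p nearly coincide.

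The composition of the family differed mainly in let-7f-5p and let-7i-5p. let-7f-5p made up 46.1% of the family's normalised reads in wild type and 41.7% in AC3-/-. let-7i-5p made up 15.4% and 19.8%. let-7g-5p went from 19.0% in wild type to 17.7% in AC3-/- and let-7c-5p from 8.20% to 9.27%, while each of the other 5 members differed by less than 0.5 percentage points between the genotypes. A share of the family does not depend on how the genotypes are scaled to each other. The shares have no replicate error, since these means cannot be split, and the differences between them were not tested.

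**Figure D2:**
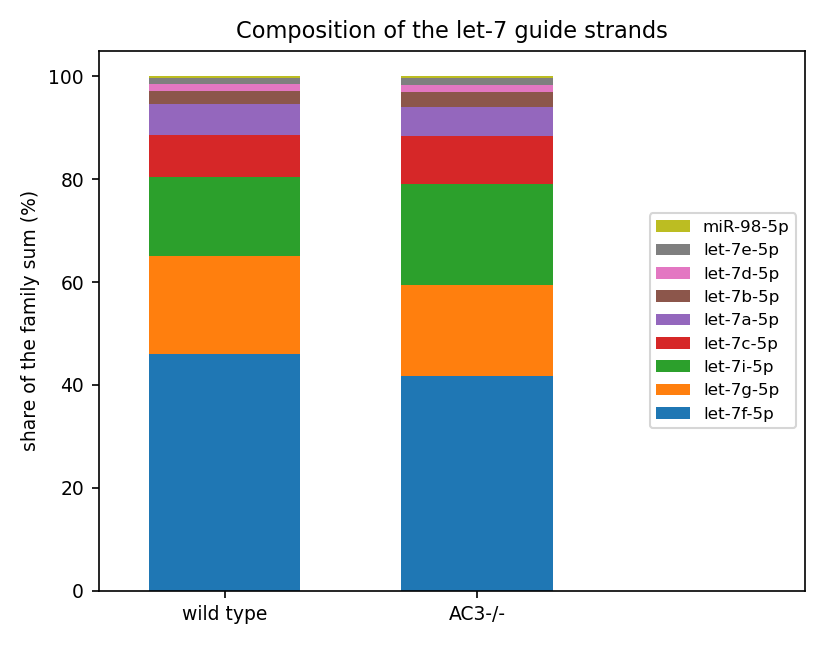
Share of the family sum held by each let-7 guide strand, in percent, as stacked bars for wild type and AC3-/- computed from the deposited means. The let-7f-5p segment is 46.1% in wild type and 41.7% in AC3-/-, and the let-7i-5p segment 15.4% and 19.8%.

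All 9 members had a lower mean in AC3-/- than in wild type on the authors' scale, and none passed a test. The family sum was 0.769-fold of wild type, a log2 ratio of -0.38, and with each genotype scaled to its column total this became 0.12, above 0. By the authors' deposited table, an adjusted p under 0.05 was reached by 0 of the 9, against a background of 0.0857% of 1167 miRNAs, and an unadjusted p under 0.05 by 0 of the 9, against 3.51%. The members' adjusted p-values in the authors' deposited table ran from 0.9395 to 0.9901. Of all miRNAs 50.6% had a ratio below 0, and it was 65.8% among the 155 whose mean reached 1000. The median log2 ratio was -0.20 over the 9 members and -0.18 over the 54 other miRNAs whose mean reached 10000, of which 39 lay below 0 and 18 lay below the ratio of the family sum.

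The members spread over a range of log2 ratios from -0.52 to -0.02. let-7f-5p had the lowest, -0.52 for the ratio of the means, with a log2 fold change of -0.48 and p = 0.097 in the authors' deposited table, which shrinks fold changes toward 0. let-7g-5p lay at -0.48 by the ratio of the means, with p = 0.2633 in the authors' deposited table. let-7a-5p lay at -0.47, with p = 0.0969 in the authors' deposited table, and let-7d-5p at -0.41, with p = 0.1613 there. These 4 had means 24.7% to 30.5% lower in AC3-/-.

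The other 5 members lay closer to 0. let-7c-5p had a log2 ratio of the means of -0.20, miR-98-5p of -0.18, let-7b-5p of -0.14 and let-7e-5p of -0.12, with p between 0.5008 and 0.6762 in the authors' deposited table. let-7i-5p had nearly equal means, a log2 ratio of -0.02 and p = 0.9693 in the authors' deposited table. Of the 233711 normalised reads by which the family sum was lower in AC3-/-, let-7f-5p held 60.9%, and let-7f-5p and let-7g-5p together 84.3%. The split of the members into 4 and 5 was made after their values were seen and was not tested.

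**Figure D3:**
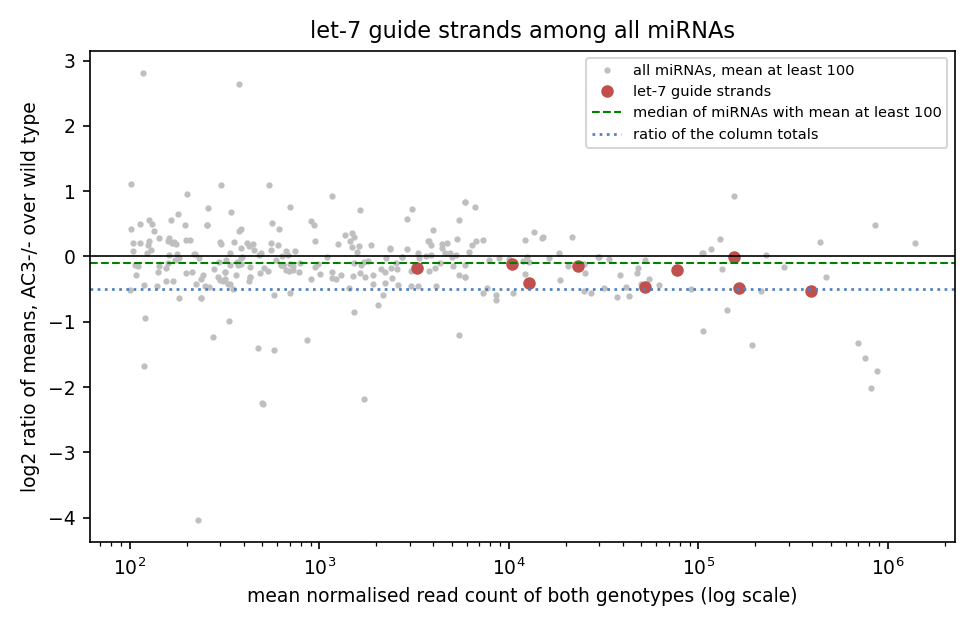
Log2 ratio of the deposited means, AC3-/- over wild type, against the mean of both genotypes on a log axis, for every miRNA whose mean reached 100 (grey) and the let-7 guide strands (red). The green dashed line is the median of the plotted miRNAs, -0.10, and the blue dotted line the log2 ratio of the column totals, -0.50; the let-7 points lie between -0.52 and -0.02.

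The direction of most members depended on how the genotypes were scaled. The deposited values summed to 12320877 in wild type and 8739148 in AC3-/-, a log2 ratio of -0.50, and scaling to these totals moves every ratio up by 0.50. The sums include the 8 sensory-epithelium miRNAs of the miR-183 cluster and the miR-200 family, which alone amounted to 5418014 in wild type and 1805089 in AC3-/-. Library values could be worked back for only 1 of the 8, so the split of these sums between libraries is not known. Scaled to the totals, 8 of the 9 members lay above 0, from 0.01 for let-7g-5p to 0.48 for let-7i-5p, and let-7f-5p lay at -0.03. With the median of the miRNAs of at least 100 set to 0, a shift of 0.10, let-7f-5p, let-7g-5p, let-7a-5p and let-7d-5p lay from -0.43 to -0.31 and let-7i-5p at 0.08. Differences between members are the same under each of these scalings.

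**Figure D4:**
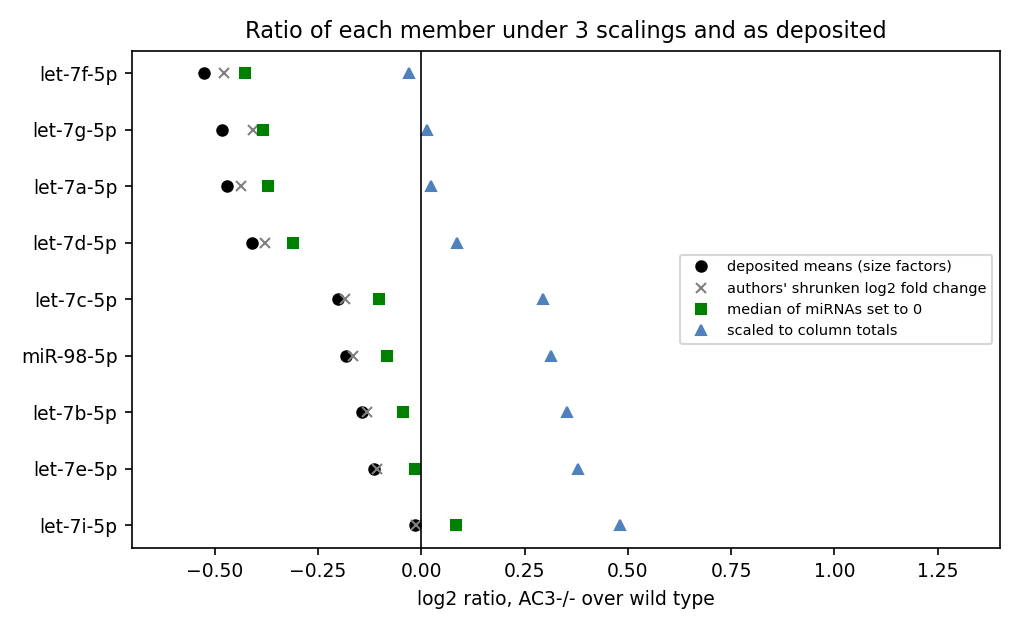
Log2 ratio of AC3-/- over wild type for each let-7 guide strand, from the deposited means (black circles), as the authors' shrunken fold change (grey crosses), with the median of miRNAs of at least 100 set to 0 (green squares) and scaled to column totals (blue triangles). Black circles all lie below 0, from -0.52 to -0.02, and all triangles but that of let-7f-5p above 0.

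Single libraries could be worked back from the means for 4 members, let-7b-5p, let-7d-5p, let-7e-5p and miR-98-5p, because each mean is a whole-number combination of what 1 read was worth in the 2 libraries and only 1 combination gave it. The libraries are called a and b within a genotype, and the letters carry no replicate number. let-7d-5p, processed from the chromosome 13 cluster, had 14223 (a) and 15142 (b) normalised reads in the wild-type libraries and 11694 (a) and 10428 (b) in the AC3-/- libraries. Both AC3-/- libraries lay below both wild-type libraries. let-7e-5p, from the Spaca6 intron, had 10987 and 10540 in the wild-type libraries, compared with 9986 and 9890 in AC3-/-, again without overlap, although the nearest libraries, 10540 and 9986, were close.

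let-7b-5p, which lies beside let-7c-2 on chromosome 15, had 26699 and 21942 normalised reads in wild type and 22801 and 21230 in AC3-/-. Its wild-type library b lay below AC3-/- library a, so the genotypes overlapped. miR-98-5p had 3861 and 3131 in wild type and 3343 and 2818 in AC3-/-, which overlapped likewise. Thus 2 of the 4 members lay lower in both AC3-/- libraries, and the background in that direction was 16.9% of the 449 miRNAs that had library values and a mean of 10 or more. The 4 members share the same libraries, and their count was not tested against this background. These values rest on 2677 to 26174 reads per member and library, and the 2 libraries of a genotype differed by at most 1.23-fold for any of the 4.

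**Figure D5:**
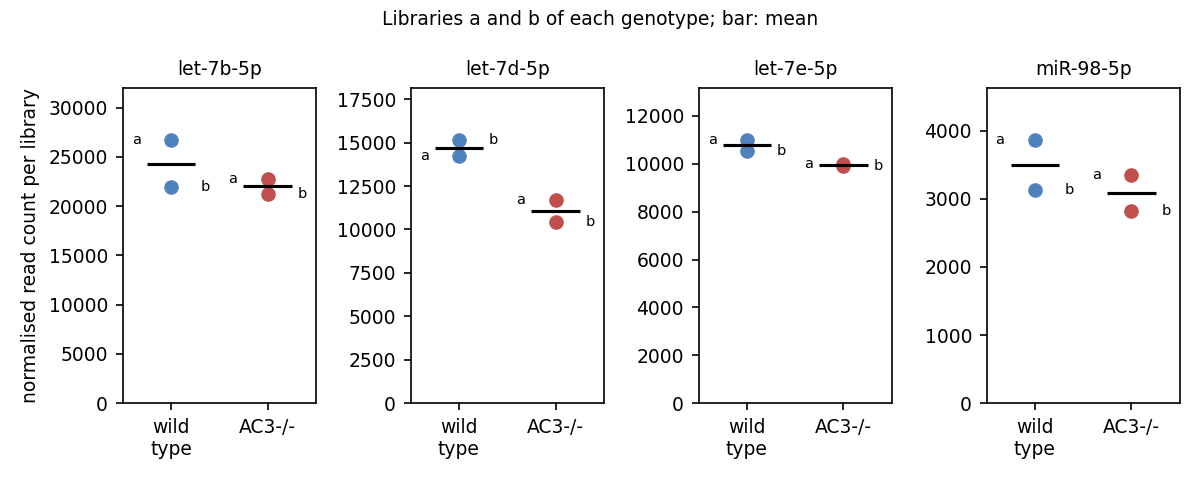
Normalised read counts of the 4 let-7 guide strands with library values, in libraries a and b of each genotype, with a bar at the mean and axes that start at 0. let-7d-5p shows the widest gap, with 14223 and 15142 in wild type against 11694 and 10428 in AC3-/-; let-7b-5p and miR-98-5p overlap.

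A limma fit over the 449 miRNAs, on log2(normalised value + 1), put let-7d-5p at -0.41 (log2 difference, standard error 0.19), with an adjusted p of 0.932. The 95% interval of that difference ran from -0.89 to 0.07. For let-7e-5p the limma difference was -0.11 (interval -0.60 to 0.37), for let-7b-5p -0.14 (-0.60 to 0.32) and for miR-98-5p -0.18 (-0.87 to 0.51), each with an adjusted p of 0.932. 0 of the 4 passed by limma at an adjusted p of 0.05, as did 0.0% of the 449, and 0 of the 4 had an unadjusted p under 0.05 in limma, against a background of 3.56%. The intervals leave room for a member to be over 1.5 times lower or somewhat higher in AC3-/-.

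Across the table the 2 wild-type libraries lay further apart than the 2 AC3-/- libraries, which does not say which wild-type library was unusual. The 2 wild-type libraries differed at least 2-fold in 116 of the 449 miRNAs, and the 2 AC3-/- libraries in 26, while none of the 4 let-7 guides was among either. Without wild-type library b the limma difference was -0.28 for let-7b-5p, -0.33 for miR-98-5p, -0.37 for let-7d-5p and -0.14 for let-7e-5p. Without wild-type library a it was 0.00 for let-7b-5p, on the other side of 0, -0.03 for miR-98-5p, -0.46 for let-7d-5p and -0.08 for let-7e-5p. In this last fit let-7d-5p had an unadjusted p of 0.0274 by limma (adjusted p = 0.121, interval -0.85 to -0.06), where 130 of the 449 miRNAs had one under 0.05.

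Sums of markers of other cell types differed between the genotypes too, and no marker of the lists was at 0 in either genotype. The 3 mesenchymal markers summed to 113334 normalised reads in wild type and 86608 in AC3-/-, a log2 ratio of -0.39 with 3 of 3 below 0, close to the -0.38 of the let-7 family sum. The 1 of 3 with library values had 3887 (a) and 3166 (b) in wild type and 2552 (a) and 3526 (b) in AC3-/-, with overlap. Outside the list, miR-199b-5p lay at 0.18 and miR-214-5p at 0.07, and miR-199a-5p at -0.25 and miR-140-5p at -0.18. The 3 striated-muscle markers summed to 6807 and 5463, a log2 ratio of -0.32 with 3 of 3 below 0. Nearly all of this sum was miR-1a-3p, itself at -0.32. The 6 leukocyte markers lay the other way, with 0 of 6 below 0. Their sums were 116848 in wild type and 217331 in AC3-/-, a log2 ratio of 0.90. miR-146a-5p, at 0.93, held most of both sums, so the 0.90 is largely its ratio. The other 5 lay from 0.08 for miR-223-3p to 0.92 for miR-155-5p. Between them were miR-142a-5p at 0.20, miR-150-5p at 0.48 and miR-142a-3p at 0.83. The 7 ciliated-cell markers summed to 244217 and 250250, a log2 ratio of 0.04, and this sum was nearly all miR-34c-5p, itself at 0.03. The 4 red-cell markers summed to 4476 and 5492 (0.29, with 3 of 4 below 0). Most of this sum was miR-451a, the only 1 of the 4 above 0, at 0.40. In single libraries the 4 summed to 5773 (a) and 3180 (b) in wild type and 6224 (a) and 4759 (b) in AC3-/-, with overlap. The 3 neuronal markers summed to 107501 and 112386 (0.06), but this sum was nearly all miR-9-5p, itself at 0.06. miR-128-3p lay at 0.19. miR-124-3p, the scarcest of the 3, had by far the largest ratio, with both AC3-/- libraries above both wild-type libraries. On the same scale the 8 sensory-epithelium miRNAs lay at -1.59, 8 of 8 below 0. Single libraries could be worked back for only part of most lists, without the most abundant leukocyte and ciliated markers. Only 1 of the 8 sensory-epithelium miRNAs had library values. It had 17615 (a) and 41585 (b) in wild type and 18849 (a) and 22274 (b) in AC3-/-, with overlap. For the other sensory-epithelium miRNAs the libraries cannot be compared. The muscle markers, 3 of 3 with library values, summed to 6603 (a) and 7011 (b) in the wild-type libraries and to 6537 (a) and 4389 (b) in the AC3-/- libraries. The 6 of 7 ciliated-cell markers with library values summed to 30581 in wild-type library a, 5971 in library b, and 13840 and 26208 in AC3-/-, and 5 of 6 leukocyte markers to 16553, 5197, 14116 and 17682 in the same order. Their part in the let-7 values was not tested.

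Ratios of members within a library need no scaling between libraries. let-7d-5p over let-7e-5p was 1.29 and 1.44 in the wild-type libraries and 1.17 and 1.05 in the AC3-/- libraries. let-7b-5p over let-7d-5p was 1.88 and 1.45 in wild type and 1.95 and 2.04 in AC3-/-. Neither ratio overlapped between genotypes, and the other 4 of the 6 ratios among these members did. Over 6216 pairs of miRNAs whose means reached 1000, the background of ratios without overlap was 31.3%, close to the share of 2 in 6. The exact permutation test, two-sided, gave p = 0.333 for each of the 2, the smallest that 2 libraries against 2 allow.

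For let-7a-5p and let-7c-5p a few combinations of reads gave the deposited mean. let-7a-5p had 3 in wild type, of which the most even was 59842 and 62546 normalised reads in libraries a and b, and in the next the libraries were 18.6-fold apart. In AC3-/- it had 4, the most even 46104 and 42195, the next 2.39-fold apart. let-7c-5p had 4 in each genotype, the most even 87280 and 78666 in wild type and 76669 and 67591 in AC3-/-, and the next 4.36-fold and 3.43-fold apart. Which combination holds cannot be told from the means. Of 112 miRNAs that had library values and a mean of 1000 or more, 4 were 4.36-fold or more apart in wild type and 1 was 2.39-fold or more apart in AC3-/-. let-7f-5p, let-7g-5p and let-7i-5p had 58 or more combinations per genotype.

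The passenger strands, the 3p arms that are mostly discarded when a guide is loaded, were far scarcer. 11 rows of let-7 and miR-98 3p arms were listed, 6 below 0 and 5 above 0 with a median log2 ratio of 0.00, and with let-7j and let-7k there were 13, with 0 of the 13 at an unadjusted p below 0.05 by the authors' deposited table. let-7d-3p was the most abundant of them, with 1466 normalised reads in wild-type library a, 1669 in library b, and 1439 and 1498 in AC3-/-. AC3-/- library b lay between the wild-type libraries, so the groups overlapped, unlike for let-7d-5p. let-7a-1-3p had 328 and 381 in the wild-type libraries, compared with 314 and 245 in AC3-/-, without overlap. Its sequence is the same as that of let-7c-2-3p, which is why both are shown, and only the former is a row of the table.
let-7a-1-3p: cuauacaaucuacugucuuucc
let-7c-2-3p: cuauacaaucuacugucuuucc

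let-7i-3p, the third by level, had 66.9 and 119 normalised reads in wild type and 112 and 93.8 in AC3-/-, with overlap. let-7g-3p, on 6 reads in wild-type library a, had 6.38 and 47.9 in wild type and 31.4 and 60.1 in AC3-/-. The limma difference of let-7g-3p was 1.23 with a standard error of 0.95, and an adjusted p of 0.932. Without wild-type library b, the limma difference of let-7g-3p was 2.59 with an adjusted p of 0.0462, 1 of 2 calls among 449 miRNAs. That fit sets a single wild-type library, with 6 reads of let-7g-3p, against the AC3-/- pair and takes its spread from the AC3-/- pair alone; the full set of libraries gave no call.

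The 5p arm exceeded the 3p arm at every hairpin with a single guide, to very different degrees. let-7d had the smallest excess, 9.37-fold in wild type and 7.53-fold in AC3-/- by the deposited means, and let-7g the largest, 7090-fold and 3014-fold. The wild-type value of let-7g rests on 6 and 41 reads of let-7g-3p in the 2 libraries: it was 4016-fold with let-7g-3p of library b alone and 30204-fold with that of library a alone, a check chosen after seeing the data. Between them lay miR-98 with 75.1-fold and 46.6-fold, let-7e with 160-fold and 155-fold, let-7b with 767-fold and 718-fold, and let-7i with 1669-fold and 1492-fold. Ligation can act differently on the 2 arms, which bears on the comparison between hairpins. The let-7d hairpin is shown because both of its arms are abundant, each written in capitals, the 5p arm first.
let-7d hairpin: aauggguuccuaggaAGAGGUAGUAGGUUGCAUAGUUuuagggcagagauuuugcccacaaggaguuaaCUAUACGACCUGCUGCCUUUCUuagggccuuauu

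Within single libraries the 5p to 3p ratio of let-7d was 9.70 and 9.07 in wild type and 8.13 and 6.96 in AC3-/-, without overlap. That of miR-98 was 98.2 and 58.2 in wild type and 57.3 and 38.2 in AC3-/-, also without overlap. The ratios of let-7b and let-7e overlapped. Over 114 pairs of arms with library values the background of ratios without overlap was 38.6%, against 2 of 4 here, and the exact permutation p, two-sided, was 0.333 for each of the 2.

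Several let-7 hairpins lie in clusters with hairpins of the miR-99/100 and miR-125 families. In GRCm38 Mir125a lies 367 bases from Mirlet7e, Mir99a 656 bases from Mirlet7c-1, and Mir100 5211 bases from Mirlet7a-2, each on the same strand. Of the 11 rows of these partners, 8 lay above 0 and 3 below 0, with a median log2 ratio of the means of 0.18, with 0 of the 11 at an unadjusted p below 0.05 by the authors' deposited table. Among the 5 guide strands of the partners 4 lay above 0. miR-100-5p had 14818 and 12391 normalised reads in wild type and 15495 and 18009 in AC3-/-, without overlap. miR-99b-5p had 18623 and 17779 in wild type and 19947 and 17741 in AC3-/-, with overlap. miR-99a-5p, the most abundant partner, had means of 112450 in wild type and 122313 in AC3-/-, a log2 ratio of 0.12. miR-125b-5p was the guide below 0, with means of 25994 and 23997. miR-125a-5p, from the hairpin 367 bases from Mirlet7e, had 5581 and 6401 in wild type and 6642 and 6932 in AC3-/-, without overlap, while let-7e-5p lay lower in both AC3-/- libraries. Both AC3-/- libraries lay above both wild-type libraries in 16.7% of the 449 miRNAs, and below both in 16.9%.

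Next, the 5 miRNAs most like the 4 let-7 guides with library values were sought among 108 other miRNAs whose mean reached 1000. They were chosen by the smallest root mean square difference in centred log2 value over the 4 libraries from the mean of the 4 let-7 guides. These 4 are the scarcest members, so the likeness does not cover let-7f-5p, let-7g-5p, let-7i-5p, let-7c-5p or let-7a-5p. miR-203-3p was nearest, at 0.05, with 13873 and 12727 normalised reads in wild type and 11189 and 11005 in AC3-/-. miR-101b-3p and miR-192-5p followed at 0.05 and 0.06, then miR-140-5p and miR-203b-5p at 0.07 each. The median over the 108 was 0.26, and the 4 let-7 guides themselves lay at 0.06 to 0.13. With 4 libraries, likeness of this kind is a description of these samples only.

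Sequence neighbours had both like and unlike ratios. The median distance in log2 ratio was 0.16 over the 4 pairs of members 1 base apart, 0.19 over the 10 pairs 2 bases apart, 0.21 over the 11 pairs 3 bases apart and 0.26 over the 9 pairs 4 bases apart. It was 0.10 for the 1 pair 5 bases apart and 0.39 for the 1 pair 6 bases apart. let-7a-5p and let-7f-5p, which differ by G12A, had log2 ratios of -0.47 and -0.52. let-7a-5p and let-7e-5p, which differ by U9G, had -0.47 and -0.12. let-7g-5p and let-7i-5p both carry G12U and U18C relative to let-7a-5p and had -0.48 and -0.02. The share of G and C in the sequence ran from 31.8% in let-7f-5p and miR-98-5p to 45.5% in let-7b-5p, and its correlation with the log2 ratio over the 9 members was 0.53 by Pearson and 0.61 by Spearman. Over 133 miRNAs with a RefSeq sequence whose mean reached 1000 the correlation was 0.01 by either measure. The points of both share the same libraries, and neither correlation was tested.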

How the data were processed

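Small RNA was sequenced from 2 wild-type and 2 AC3-/- samples of main olfactory epithelium, grouped by their titles. Per the labels' protocols, libraries were made by adaptor ligation, PCR and gel selection. Bowtie, DESeq 1.8.3 and GRCm38 are named in the submitters' processing notes, but the read counter and miRBase release are not.

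The authors' deposited table gives a signal per genotype, the mean normalised read count, per the file headers and the values. It also gives a log2 fold change, a p-value and an adjusted p-value, deposited by the authors. The log2 fold change is shrunken: for the members its size was a median of 91.1% of that of the plain ratio. The p-values are tallied as deposited.

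From the table, ratios, shares and ranks were computed in Python 3.11.15. Values are written to 10 significant digits, so whole reads of both libraries were worked back where 1 combination gave the mean: 1125 of 1167 rows (96.4%) for AC3-/- and 1134 (97.2%) for wild type. The size factors worked out as 1.148 (a) and 1.099 (b) in AC3-/-, and as 0.941 (a) and 0.855 (b) in wild type. Both libraries of a genotype together held 19201686 to 20063529 reads in AC3-/- and 21071945 to 23190561 in wild type. Reads carry no molecular identifiers, so read numbers cover counting error only. limma 3.58.1 (R 4.3.3; trend on intensity) was fitted to 449 miRNAs whose mean reached 10, with Benjamini-Hochberg adjustment over all of them. Recovery and the fit were checked on simulated data. The simulated libraries for the fit all had the same spread, whereas the real wild-type pair differed more than the AC3-/- pair. That check therefore does not cover the unequal spread of these libraries.

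All 9 members were named, with the passenger strands, clustered partners and the 5 most alike miRNAs by a written rule. Named examples of passengers and partners beyond the 3 most abundant were chosen after their values were seen. The members and lists were chosen with earlier results of these data known. Coordinates and sequences come from RefSeq and GENCODE M21, both GRCm38.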

Additional observations from a re-analysis of the deposited data

How the results depend on the processing

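Scaling to column totals turned the family sum from -0.38 to 0.12 on the log2 scale. It also turned let-7a-5p to 0.025, let-7b-5p to 0.35, let-7c-5p to 0.29, let-7d-5p to 0.087, let-7e-5p to 0.38, let-7g-5p to 0.013, let-7i-5p to 0.48 and miR-98-5p to 0.31. Setting the median of miRNAs to 0 turned let-7i-5p to 0.084 and no other member. A pseudocount of 10 and the authors' shrunken fold change turned no member. The family share became 11.3% in AC3-/- and 14.8% in wild type with the miR-200 family and miR-183 cluster left out of the total, the opposite order to 8.90% and 8.21%, and 8.93% and 8.23% with passenger strands added. Without miR-98-5p, let-7f-5p held 41.8% and 46.3% of the family. The number of members past the threshold stayed 0 when adjusted over 492 rows with a mean of at least 10 and at an unadjusted p under 0.05. The adjusted count also stayed 0 of 4 by limma with a pseudocount of 10, with no filter, and with each library left out. Without wild-type library a, let-7b-5p stood at 0.0039, and limma then called 63 of 449 miRNAs, no member among them, the spread of the lone wild-type library being taken from AC3-/-. Adjusted p-values of let-7d-5p ran from 0.121 to 0.999 over these fits. No library could be left out for the 5 most abundant members. No paired analysis was possible because the columns carry no replicate numbers.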
